A study of Oryza sativa with 36 samples.

Results

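The step from stage 3 to stage 4 of floret development in the rice cultivar IR64 is described here from 6 of the 36 libraries of a study of rice florets, 3 of stage 4 and 3 of stage 3, across all 26726 genes that passed the filter on low counts. The libraries were chosen by their labels alone. IR64 is an indica rice cultivar and carries no transgene here, and a floret is the single flower of a grass with its enclosing hull. Every group came from growth cabinets with a 12 h day, at 30 °C in the light and 24 °C in the dark. Sampling of developing florets ran from about 75 to 85 days after sowing, and each developing library mixed RNA from 3 plants, so a replicate is a pool and not a plant. The study's other line, OsEPF1-oe, overexpresses OsEPF1, a secreted peptide known to restrain stomatal development, in the same cultivar, under a promoter not given in the sources used here. Its 3 stage 4 and 3 stage 3 libraries share none with the IR64 step and were used to set the same step beside it. Stages are numbered 1 to 5, followed by mature florets of about 95 days. The sources used here define the stages by these numbers only. Replicates are labelled as biological, and p-values rest on the spread between replicates over all 36 libraries, not over these 6 alone.

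As a rice floret develops, its meristem is used up in making the organs, cells of lemma and palea stop dividing and expand, and stamens form anthers. In the anther, germ cells enter meiosis, in which homologous chromosomes pair, synapse and recombine. The tapetum, the innermost layer of the anther wall, feeds them, delivers pollen wall material and then dies. A cascade of basic helix-loop-helix transcription factors, among them UDT1 and TDR, runs tapetal development in rice.

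The 6 libraries held 23080173 to 55476576 counts each. At stage 3, replicate 1 stood apart. Its log2 expression correlated across genes at 0.9759 with each of the other stage 3 libraries, which correlated with each other at 0.9903, whereas stage 4 replicates correlated at 0.9866 to 0.9905 and libraries of different stages at 0.9569 to 0.9766. Genes are not independent, and these values only describe the libraries. On the first principal component of the 6 libraries, which held 52.6% of the variance, the stage 4 libraries lay at 54.24, 56.18 and 53.42 and the stage 3 libraries at -79.7, -37.06 and -47.09. The second component, with 22.5%, set stage 3 replicate 1 at 60.58 against -37.43 and -46.14 for its own group. The median SD between replicates was 0.138 at stage 4 and 0.254 at stage 3 on the log2 scale. The labelled tissue matched its markers, since the hull gene MADS1 averaged 715 CPM at stage 4 and 677 CPM at stage 3, and the lodicule and stamen gene MADS16 averaged 375 and 317 CPM in the same order. CPM are counts set to a common library size after TMM scaling. The late pollen expansins EXPB9 and EXPB10 had 0 counts in all 6 libraries.

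Of the 26726 genes, 4074 differed between stage 4 and stage 3 of IR64, which is 15.2%. A gene is called where the adjusted p of edgeR's quasi-likelihood test is under 0.05. Of these, 1951 genes (7.30%) were higher at stage 4 and 2123 (7.94%) were lower, with a median absolute log2 fold change of 0.7955. Which direction held more genes depended on the scaling, with 2291 higher and 1740 lower under RLE scaling (56.8% higher, against 47.9%) and 2705 and 2073 with DESeq2. Without stage 4 replicate 1, 1197 genes were higher and 1723 lower. At 2-fold or more, 866 genes (3.24%) were higher and 737 (2.76%) lower. Beyond 4-fold the numbers were 371 and 327, and beyond 8-fold 145 genes were higher and 238 lower. Without stage 3 replicate 1, 3011 genes were called, of which 2730 were among the 4074. The 3 stage 4 values lay wholly above or below the 3 stage 3 values in 3976 (97.6%) of the called genes and in 32.0% of all tested genes.

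The called genes changed what the libraries were made of. The 1951 higher genes took 14.2%, 13.6% and 13.4% of all counts in the stage 4 libraries, against 8.13%, 8.65% and 8.56% in the stage 3 libraries. The 2123 lower genes took 7.19%, 7.07% and 7.32% at stage 4 and 12.1%, 10.2% and 10.6% at stage 3. These shares describe genes chosen on the same values. Means of 1 CPM or more were reached by 20496 genes at stage 4 and 20392 at stage 3. Called genes made up 8.02% of those averaging under 1 CPM, 16.3% of those at 1 to 10 CPM, 17.4% at 10 to 100 CPM and 21.2% at 100 to 1000 CPM. Over 1000 CPM, 18.9% of 37 genes were called, 7 higher and 0 lower.

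The largest changes among well-expressed genes are given by identifier, since the tables at hand give these genes no name. Os01g0132400 had 58.4, 40.4 and 25.1 CPM at stage 4, against 0, 0.122 and 0.017 CPM at stage 3. It was close to absent at stage 3 and present in every stage 4 pool (log2 fold change 10 ± 0.84 SE, edgeR adjusted p = 8.5e-09, and 11.36 without stage 3 replicate 2). Os09g0329000 had 66.4, 51.2 and 27.7 CPM at stage 4, against 0.135, 0.365 and 0.0682 CPM at stage 3 (8.24 ± 0.93, adjusted p = 9.4e-06, with 8.98 without stage 3 replicate 2 and 7.62 without replicate 3). Os07g0151100 went the other way, with 0.346, 0.816 and 0.666 CPM at stage 4 and 72.4, 23.8 and 39.0 CPM at stage 3 (-6.20 ± 0.42, adjusted p = 5.6e-10). Os06g0628032 had 0.173, 0.319 and 1.46 CPM at stage 4 and 53.9, 35.2 and 47.7 CPM at stage 3 (-6.09 ± 0.96, adjusted p = 0.00011, and -7.51 without stage 4 replicate 3). In OsEPF1-oe, the log2 fold changes of Os01g0132400 and Os09g0329000 were 5.21 ± 0.73 and 7.35 ± 1.18 (edgeR adjusted p = 1.6e-05 and 4e-04). Os07g0151100 fell there as well (-3.60 ± 0.35, adjusted p = 6.7e-08). There, Os06g0628032 went from 40.8, 20.5 and 24.9 CPM to 5.27, 14.2 and 12.1 CPM without a call (-1.45 ± 0.75, adjusted p = 0.25). The difference between the lines was called for Os07g0151100 and not for the others. The 4 genes had different courses in IR64. Os01g0132400 and Os09g0329000 averaged 45.7 and 224 CPM at stage 5, and 9.87 and 0 CPM in mature florets. Os06g0628032 was high at stage 3 alone, with 0.0118 CPM at stage 1, 1.64 CPM at stage 2 and 0.0604 CPM at stage 5, whereas Os07g0151100 averaged 18.3 CPM at stage 1, 31 CPM at stage 2, 45.1 CPM at stage 3 and 0.509 CPM at stage 5.

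**Figure D1:**
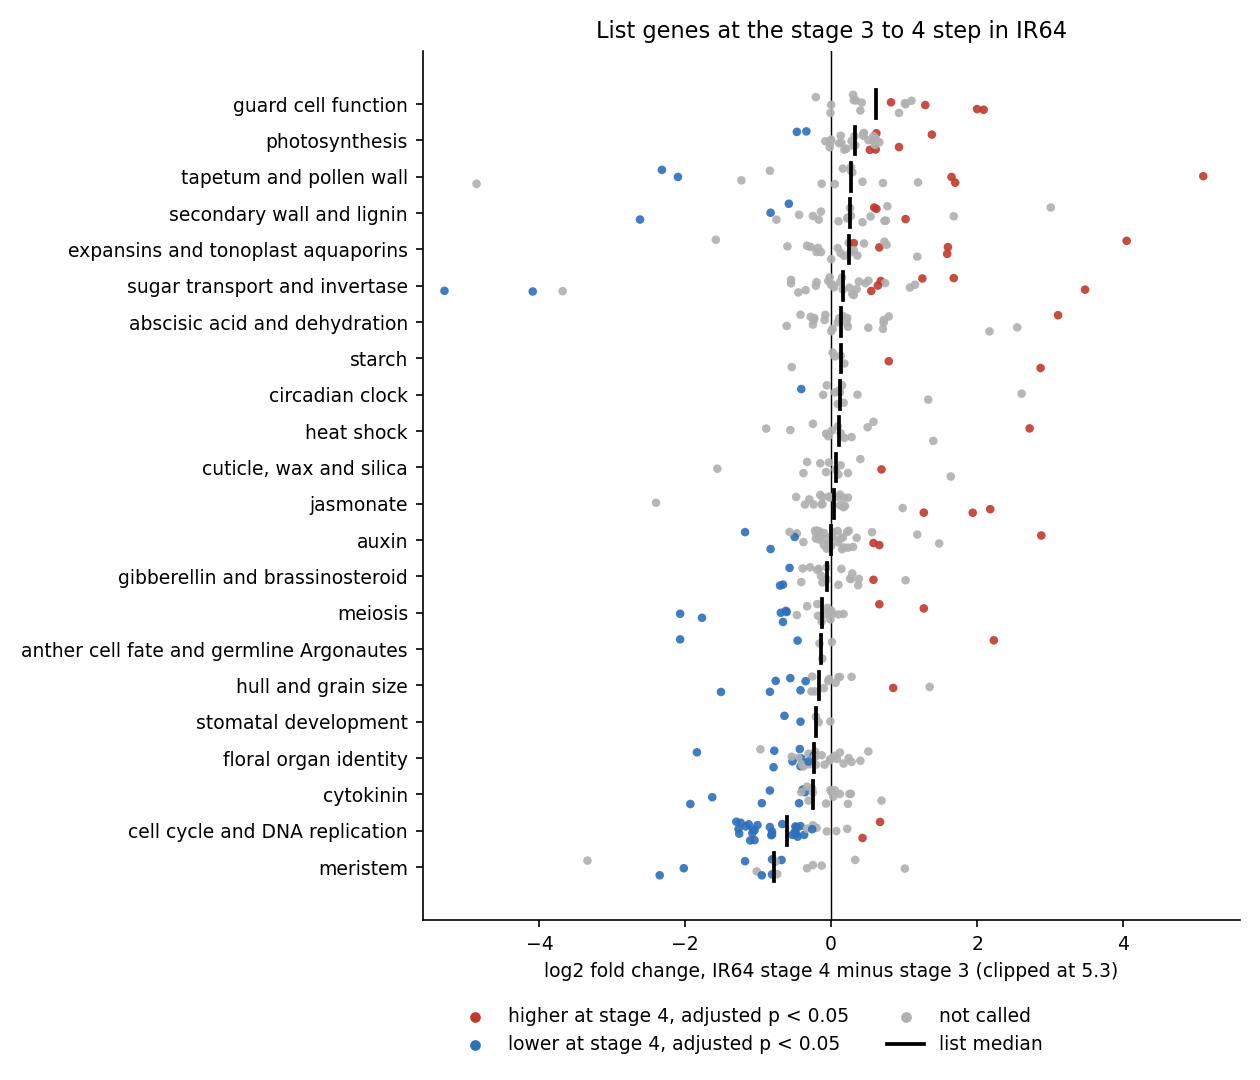
Log2 fold change of each tested list gene between stage 4 and stage 3 of IR64 (x axis, clipped at 5.3), with 1 row per gene list in order of its median (black bar). Red points were higher and blue points lower at an edgeR adjusted p under 0.05, and grey points were not called. The meristem list (median -0.78) and the cell cycle list (median -0.60) lie furthest to the left. The guard cell function list (median 0.62), mostly plasma membrane aquaporins, lies furthest to the right. SWEET3A, with 0 counts at stage 4, is drawn at the clip.

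Named genes were grouped into 23 lists of 477 genes, of which 452 passed the filter and 123 were called. MEL1 is on both the meiosis and Argonaute lists and CKX2 on both the meristem and cytokinin lists, and each counts in both. The lists were drawn up with earlier results of these data known and describe rather than test. The 123 make 27.2% of the tested list genes, against 15.2% of all genes. Each list's count is to be read against the 7.30% of all genes that were higher and the 7.94% that were lower, and the median log2 fold change over all tested genes was 0. In whole florets, fewer cells of a type and less RNA per cell cannot be told apart.

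Tapetum genes moved in both directions. Of 17 tested members, 3 were higher (17.6%) and 2 lower (11.8%), with a median of 0.27. UDT1 (Os07g0549600), needed for early tapetum differentiation, had 8.55, 7.52 and 6.38 CPM at stage 4, against 47.5, 19.2 and 29.6 CPM at stage 3. Its stage 4 values lay well below every stage 3 value, the highest of which was in replicate 1 (log2 fold change -2.10 ± 0.22 SE, edgeR adjusted p = 1.2e-07, and -1.71 without that library). BHLH141 (Os04g0599300), which RefSeq also lists as EAT1 and which promotes tapetal cell death, had 15.4, 11.9 and 17.4 CPM at stage 4 and 98.4, 52.6 and 72.5 CPM at stage 3 (-2.32 ± 0.42, adjusted p = 0.00023). TDR (Os02g0120500), a regulator of tapetum degeneration, moved the other way, with 482, 407 and 303 CPM at stage 4 and 166, 120 and 93.0 CPM at stage 3 (1.65 ± 0.25, adjusted p = 2.0e-05). The groups of all 3 regulators were separate. In both stages TDR was highest in replicate 1 and lowest in replicate 3.

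The largest rise of the list was in C4. C4 (Os08g0546300), a lipid transfer protein of the anther, had 1190, 880 and 640 CPM at stage 4, against 50, 23.1 and 6.17 CPM at stage 3. Every stage 4 value exceeded every stage 3 value by over 10-fold, and replicate 1 was highest in both stages (5.10 ± 0.90, adjusted p = 0.00019, and 5.98 without stage 3 replicate 1). RAFTIN1 (Os08g0496800), a protein carried from the tapetum to developing microspores, had 33.1, 28 and 17.3 CPM at stage 4 and 13.7, 6.33 and 4.28 CPM at stage 3 (1.70 ± 0.48, adjusted p = 0.016). That call was lost without stage 3 replicate 2, stage 3 replicate 3 or stage 4 replicate 1, and the value was 2.32 without stage 3 replicate 1. CYP703A3, a hydroxylase of anther cuticle and exine synthesis, averaged 31.6 CPM at stage 4 and 13.9 CPM at stage 3 without passing the test (1.19 ± 0.45, adjusted p = 0.075). BHLH142, another tapetal regulator, averaged 141 and 105 CPM in the same order (0.43 ± 0.17, adjusted p = 0.095). The later regulator PTC1 was near its floor in both stages, at 0.0691 and 0.175 CPM. The summed list was at 1605 to 2415 CPM at stage 4, against 730.4 to 998.8 CPM at stage 3. C4 and TDR carried that sum, and the list without them ran from 661.8 to 745.1 CPM at stage 4 and from 617.4 to 782.7 CPM at stage 3.

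**Figure D2:**
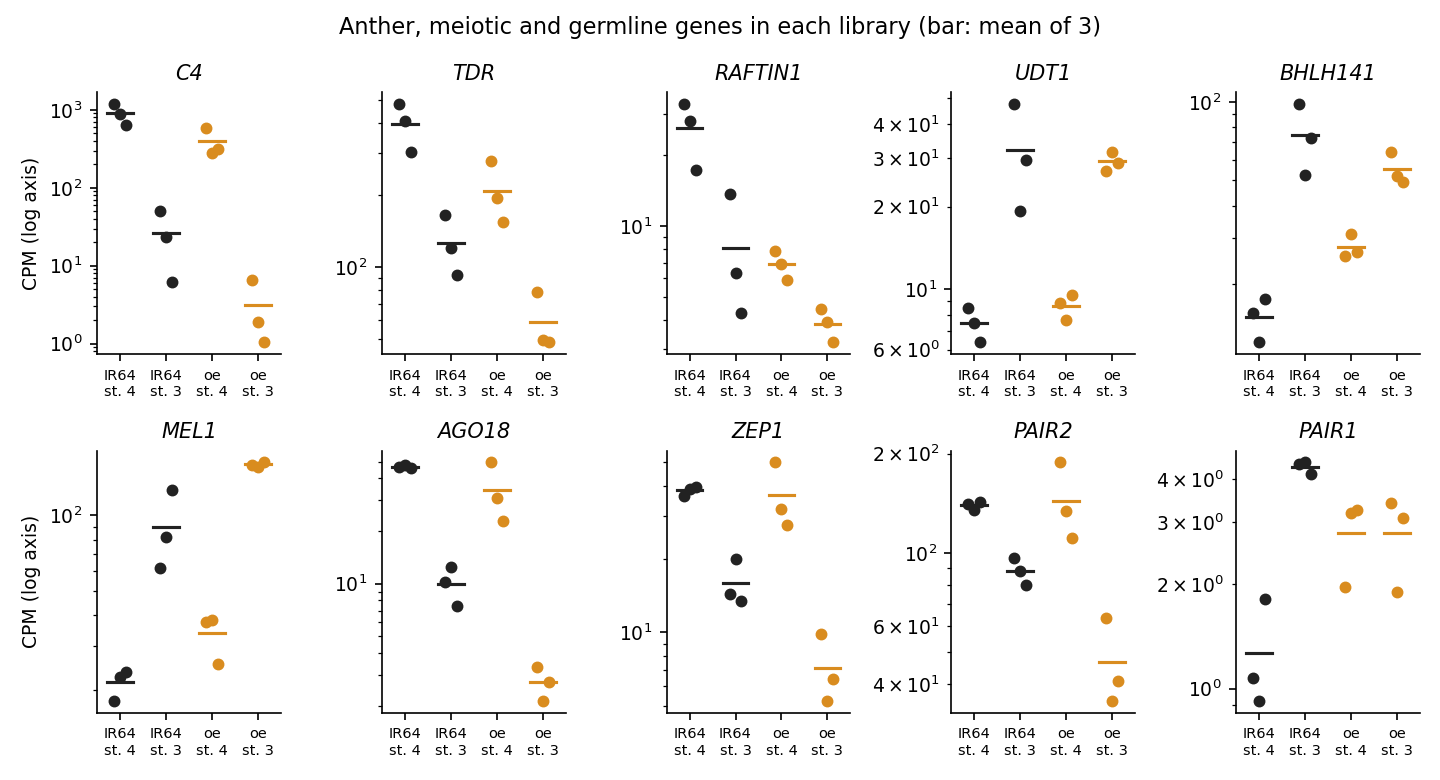
CPM (log axes, scaled for each gene) of 5 tapetum genes and 5 meiotic or germline genes in every library of IR64 (black) and OsEPF1-oe (orange) at stages 4 and 3. Points are libraries, bars are means of 3. C4, TDR, AGO18 and ZEP1 lie higher at stage 4 in both lines, and UDT1, BHLH141 and MEL1 lie lower, while PAIR1 is lower at stage 4 in IR64 and has the same mean at both stages of OsEPF1-oe. The difference between the lines was not called for PAIR1.

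Meiotic genes moved in both directions as well. Of 21 tested members, 2 were higher (9.52%) and 6 lower (28.6%), with a median of -0.13. The lowest value was that of MEL1 (-2.07), which is described with the Argonautes. ZEP1 (Os04g0452500), the central element of the synaptonemal complex that holds paired chromosomes together, had 36.5, 39.0 and 39.8 CPM at stage 4, against 14.4, 20.1 and 13.5 CPM at stage 3. The 3 stage 4 values were close together and all above the highest stage 3 value (1.27 ± 0.25, edgeR adjusted p = 0.00053). PAIR2, a protein of the chromosome axis, had 141, 135 and 143 CPM at stage 4 and 96.7, 88.4 and 79.8 CPM at stage 3 (0.66 ± 0.20, adjusted p = 0.024). The groups were separate, but the call was lost without stage 3 replicate 2 or 3 or stage 4 replicate 1 or 3.

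PAIR1 and SPO11-1 were among the lower genes. PAIR1 (Os03g0106300), needed to form the breaks that start recombination, had 1.07, 0.923 and 1.81 CPM at stage 4 and 4.42, 4.46 and 4.14 CPM at stage 3 (-1.77 ± 0.29, edgeR adjusted p = 6.9e-05). SPO11-1, the break-forming topoisomerase-like protein, had 6.75, 7.42 and 6.63 CPM at stage 4 and 9.96, 11.1 and 12.4 CPM at stage 3 (-0.69 ± 0.17, adjusted p = 0.0051). The groups of both were separate. Of related members of the list, SPO11-2, SPO11-4 and TOP6B were not called, with log2 fold changes of -0.18 ± 0.12, -0.01 ± 0.09 and -0.05 ± 0.15. SGO1, a protector of centromeric cohesion, fell by 0.66 ± 0.12 on the log2 scale (adjusted p = 0.00024), and MUS81, a nuclease of recombination, by 0.62 ± 0.14 (adjusted p = 0.0032). CRC1, a component of the synaptonemal complex, was lower as well (-0.61 ± 0.19, adjusted p = 0.027), a call that was lost without stage 3 replicate 1 or 3 or stage 4 replicate 1 or 2. The recombinase DMC1 averaged 19.5 CPM at stage 4 and 19.2 CPM at stage 3 (0.02 ± 0.17), and the crossover genes MSH5 and HEI10 had log2 fold changes of 0.00 ± 0.20 and -0.07 ± 0.10. The summed list ran from 521.3 to 571.4 CPM at stage 4 and from 525.8 to 627.5 CPM at stage 3.

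Argonautes, the proteins that small RNAs guide to their targets, moved in opposite directions. Of 6 genes on the list of anther cell fate and germline Argonautes, 1 was higher and 2 were lower, with a median of -0.14. AGO18 (Os07g0471300), a grass Argonaute of the anther, had 46.4, 47.8 and 46.0 CPM at stage 4, against 10.2, 12.4 and 7.46 CPM at stage 3 (2.23 ± 0.25, edgeR adjusted p = 2.4e-07). MEL1 (Os03g0800200), the germline Argonaute needed before and during early meiosis, had 18.1, 22.6 and 23.7 CPM at stage 4 and 61.7, 81.7 and 126 CPM at stage 3 (-2.07 ± 0.24, adjusted p = 4.1e-07). The groups were wide apart for both genes, and MEL1 was lowest in stage 3 replicate 1 among its group. MSP1, a receptor kinase that limits the number of germ cells, had 90.9, 98.7 and 105 CPM at stage 4 and 105, 145 and 155 CPM at stage 3. Its groups met at 105 CPM, and the call (-0.46 ± 0.13, adjusted p = 0.015) was lost without stage 3 replicate 2 or 3 or stage 4 replicate 1. AGO1D, AGO17 and AGO2 averaged 268, 11.9 and 37.5 CPM at stage 4 and 300, 11.8 and 40.6 CPM at stage 3, and were not called.

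Genes of DNA replication and cell division made up the list with most calls. Of 34 tested members, 26 were lower (76.5%) and 2 higher (5.88%), with a median of -0.60, and the summed list was at 1254 to 1279 CPM at stage 4, against 1791 to 1963 CPM at stage 3. All 6 subunits of the MCM helicase, which opens DNA for replication, were lower, by 1.01 to 1.3 on the log2 scale. MCM5 (Os02g0797400) had 23.7, 18.8 and 23.3 CPM at stage 4 and 61.3, 48.4 and 52.2 CPM at stage 3 (-1.3 ± 0.18, edgeR adjusted p = 7.5e-06). PCNA (Os02g0805200), the sliding clamp of the polymerases, had 71.6, 64.9 and 71.1 CPM at stage 4 and 182, 128 and 138 CPM at stage 3 (-1.11 ± 0.18, adjusted p = 7.0e-05). Stage 4 lay below stage 3 in every library for both. ORC3, a subunit of the origin recognition complex, fell by 1.27 ± 0.18 (adjusted p = 1.0e-05) and FAS2, a subunit of the chromatin assembly factor, by 1.17 ± 0.12 (adjusted p = 7.3e-08). The S-phase cyclin CYCA3-1 fell by 1.26 ± 0.18 (adjusted p = 1.4e-05), and the retinoblastoma-related gene RBR1 by 1.07 ± 0.22 (adjusted p = 0.00086).

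Genes of mitosis and other replication genes were lower as well. The mitotic kinase gene CDC2OS-3 fell by 0.81 ± 0.15 (adjusted p = 0.00034). The replication genes FEN-1, RFC3 and RPA1A fell by 0.37 ± 0.08, 0.42 ± 0.12 and 0.50 ± 0.08. The RFC3 call (edgeR adjusted p = 0.018) was lost without stage 3 replicate 1 or stage 4 replicate 1. CYCB2-1 had a log2 fold change of -0.53 ± 0.14 (edgeR adjusted p = 0.0074), and CDKB1-1, a plant-specific mitotic kinase, -0.47 ± 0.11 (adjusted p = 0.0034). The centromeric histone CENH3 fell by 0.67 ± 0.14 (adjusted p = 0.0013). The exceptions in direction were inhibitors of cyclin-dependent kinases. KRP1 had 45.8, 45.8 and 38.7 CPM at stage 4, against 32.6, 32.5 and 31.4 CPM at stage 3 (0.43 ± 0.10, adjusted p = 0.0022). KRP4 had 23.5, 23.7 and 14.7 CPM at stage 4 and 13.7, 13.1 and 12.1 CPM at stage 3 (0.67 ± 0.14, adjusted p = 0.0010). Both groups were separate, with stage 4 replicate 3 the lowest of its group in each. Of the members that were not called, RFC1 and ORC2 had log2 fold changes of 0.07 ± 0.11 and -0.06 ± 0.08.

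Meristem genes had the lowest median of all lists, -0.78, with 7 of 16 tested members lower (43.8%) and none higher, or 4 lower without stage 3 replicate 1. OSH6 (Os01g0302500), a KNOX homeobox gene of the kind that keeps meristem cells undetermined, had 5.68, 5.36 and 6.79 CPM at stage 4, against 10.4, 13.4 and 16.5 CPM at stage 3 (-1.18 ± 0.16, edgeR adjusted p = 6.9e-06). The KNOX genes OSH15 and OSH71 fell by 0.81 ± 0.20 (adjusted p = 0.0061) and 0.68 ± 0.14 (adjusted p = 0.0013). OSH1, the KNOX gene of the shoot meristem, had 24.8, 26.0 and 29.8 CPM at stage 4 and 37.1, 47.9 and 56.1 CPM at stage 3 (-0.81 ± 0.21, adjusted p = 0.0070), a call lost without stage 3 replicate 3. In all 4 the groups were separate and stage 3 replicate 1 was the lowest of its group. The largest changes among called members were in genes under 1 CPM. WOX4, a homeobox gene of meristem maintenance, averaged 0.127 CPM at stage 4 and 0.653 CPM at stage 3 (-2.35 ± 0.64, adjusted p = 0.011, and -3.23 without stage 4 replicate 2), and was no longer called without stage 3 replicate 1 or stage 4 replicate 1 or 3. APO2, the rice LEAFY homologue, averaged 0.0673 and 0.293 CPM in the same order (-2.02 ± 0.66, adjusted p = 0.037, and -2.98 without stage 4 replicate 1), a call lost without stage 3 replicate 1 or stage 4 replicate 2 or 3.

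Cytokinin genes, which respond to or break down a hormone that sustains division, had 7 of 22 members lower (31.8%) and none higher, with a median of -0.25. The list had 2 lower calls without stage 3 replicate 1 and 4 without stage 4 replicate 2. On the 6 libraries alone, 1 member was higher. RR7 (Os07g0449700), a type-A response regulator that cytokinin induces, had 3.01, 2.20 and 3.17 CPM at stage 4 and 13.9, 8.65 and 9.48 CPM at stage 3 (-1.93 ± 0.28, edgeR adjusted p = 1.7e-05). RR5 had 1.14, 0.461 and 1.21 CPM at stage 4 and 3.85, 2.44 and 2.49 CPM at stage 3 (-1.63 ± 0.36, adjusted p = 0.0019). These are the calls that held without stage 3 replicate 1, in which both genes were highest. RR10 fell by 0.84 ± 0.21 (adjusted p = 0.0057, and 0.054 without stage 3 replicate 1). The receptors HK3 and HK4 averaged 134 and 63.5 CPM at stage 4 and 111 and 63.7 CPM at stage 3, and were not called.

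Genes that set the size and shape of the hull were lower where called, with 1 exception. Of 18 tested, 1 was higher (5.56%) and 6 lower (33.3%), with a median of -0.16. GRF10 (Os02g0678800), a growth-regulating transcription factor of dividing tissue, had 8.83, 8.98 and 6.25 CPM at stage 4, against 32.3, 19.6 and 16.8 CPM at stage 3 (-1.51 ± 0.22, edgeR adjusted p = 1.8e-05). GRF1 (Os02g0776900), of the same family, had 24.3, 24.8 and 22 CPM at stage 4 and 42.0, 41.9 and 43.1 CPM at stage 3 (-0.84 ± 0.12, adjusted p = 1.8e-05). GRF1 was tight within both groups, whereas GRF10 was highest in stage 3 replicate 1. GRF6 fell by 0.56 ± 0.10 (adjusted p = 0.00011). BLS1, a nuclear protein that shapes lemma and palea, fell by 0.76 ± 0.13 (adjusted p = 9.0e-05). LG1, known for its part in ligule and panicle form, was the member that rose, with 21.4, 21.2 and 23.0 CPM at stage 4 and 10.1, 12.8 and 13.5 CPM at stage 3 (0.85 ± 0.19, adjusted p = 0.0025). The grain width gene GW2 had a log2 fold change of 0.06 ± 0.07 and SPL16 of -0.10 ± 0.10.

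Floral organ identity genes moved in 1 direction where called in the main fit. Of 33 tested, 9 were lower (27.3%) and none higher, with a median of -0.23, and 5 were lower without stage 3 replicate 3. With DESeq2 or without stage 3 replicate 1, 1 was higher. YAB4 (Os02g0643200), a YABBY gene of lateral organs, had 192, 183 and 206 CPM at stage 4 and 325, 331 and 344 CPM at stage 3 (-0.78 ± 0.12, edgeR adjusted p = 2.4e-05). YAB5 (Os04g0536300), of the same family, had 57.3, 59.9 and 62.1 CPM at stage 4 and 92.3, 99.6 and 119 CPM at stage 3 (-0.79 ± 0.16, adjusted p = 0.00065). Each was lower in every stage 4 library. Among the MADS-box genes, MADS5 fell by 0.42 ± 0.10 (adjusted p = 0.0055) and MADS17 by 0.43 ± 0.11 (adjusted p = 0.0091). G1, which specifies the sterile lemma, averaged 0.135 CPM at stage 4 and 0.476 CPM at stage 3 (-1.84 ± 0.53, adjusted p = 0.019), a call lost without stage 3 replicate 3 or stage 4 replicate 1 or 2. The hull gene MADS1, the stamen genes MADS3 and MADS16 and the carpel gene MADS58 were not called, with log2 fold changes of 0.08 ± 0.09, 0.17 ± 0.12, 0.24 ± 0.11 and -0.22 ± 0.12.

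**Figure D3:**
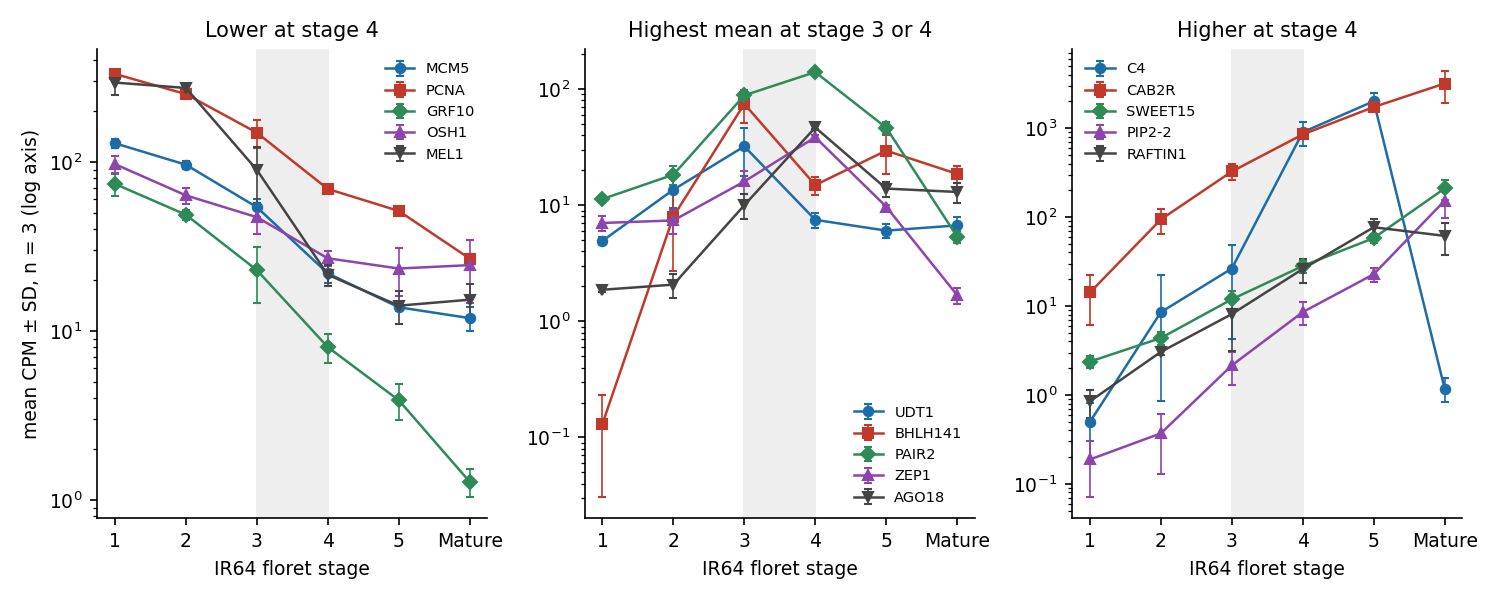
Mean CPM ± SD of 3 IR64 libraries (log axes) at stages 1 to 5 and in mature florets, with the step from stage 3 to 4 shaded. MCM5, PCNA, GRF10, OSH1 and MEL1 (left) were lower at stage 4 than at stage 3, UDT1, BHLH141, PAIR2, ZEP1 and AGO18 (middle) had their highest mean at stage 3 or 4, and C4, CAB2R, SWEET15, PIP2-2 and RAFTIN1 (right) were higher at stage 4.

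Auxin genes were called about as often as all genes. In that list, 3 of 42 tested members were higher and 3 lower (7.14% each), with a median of 0, against 2 and 1 without stage 4 replicate 2. ARF1 (Os01g0236300), a transcription factor of the auxin response, had 147, 147 and 123 CPM at stage 4, against 81.8, 91.2 and 90.4 CPM at stage 3 (0.66 ± 0.12, edgeR adjusted p = 0.00027). IAA13, a repressor of that response, rose by 0.58 ± 0.12 (adjusted p = 0.00091), and ARF15 fell by 0.50 ± 0.09 (adjusted p = 0.00013). The groups were separate for these 3 genes. PIN1B, an auxin efflux carrier, averaged 1.04 CPM at stage 4 and 2.36 CPM at stage 3 (-1.18 ± 0.32, adjusted p = 0.011), a call lost without stage 4 replicate 1 or 2. YUCCA1, an enzyme of auxin synthesis, had overlapping groups (-0.83 ± 0.25, adjusted p = 0.022) and lost its call without stage 3 replicate 1 or stage 4 replicate 2 or 3. IAA9 rested on 19 counts at stage 4 and 3 counts at stage 3, a ratio of 8.07 with a 95% exact interval of 2.38 to 42.6 for counting error only. Its call (adjusted p = 0.043) was lost when any 1 of 5 libraries was left out, all but stage 3 replicate 3.

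In the gibberellin and brassinosteroid list, 1 of 21 members was higher (4.76%) and 3 were lower (14.3%), with a median of -0.06. The list had 1 call in all without stage 3 replicate 1, and 2 without stage 4 replicate 2 or 3. CYP85A1, which makes active brassinosteroid, averaged 77.2 CPM at stage 4 and 51.7 CPM at stage 3 (0.58 ± 0.16, edgeR adjusted p = 0.011, lost without stage 3 replicate 1 or stage 4 replicate 2). CYP724B1, an earlier enzyme of the pathway, was lower (-0.66 ± 0.19, adjusted p = 0.016, lost without stage 3 replicate 3 or stage 4 replicate 1). The signalling kinase GSK2 was lower as well (-0.70 ± 0.24, adjusted p = 0.041, lost without stage 3 replicate 1 or stage 4 replicate 2 or 3). The receptor gene BRI1 and the gibberellin repressor SLR1 had log2 fold changes of -0.19 ± 0.11 and -0.14 ± 0.11 and were not called. Of 22 jasmonate genes, 3 were higher (13.6%) and none lower, with a median of 0.03, or 5 higher with RLE scaling or DESeq2. With upper-quartile scaling or the filter of 5 CPM, or without stage 3 replicate 1 or stage 4 replicate 2, 1 was lower. AOS2, an enzyme of jasmonate synthesis, had 2.15, 2.84 and 2.19 CPM at stage 4 and 0.439, 0.893 and 0.324 CPM at stage 3 (2.18 ± 0.42, adjusted p = 0.00068). The lipoxygenase CM-LOX2 averaged 0.662 CPM at stage 4 and 0.167 CPM at stage 3 (1.94 ± 0.46, adjusted p = 0.0054). The groups of both were separate.

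Wall genes did not move as one. Of 23 genes of the secondary wall and lignin list, 3 were higher and 3 lower (13% each), with a median of 0.26. The higher genes were the cellulose synthases CESA1, CESA3 and CESA8, and all depended on stage 3 replicate 1, in which they were low. The cellulose synthases CESA4, CESA7 and CESA9, on the same list, were not called. CESA8 (Os07g0208500) had 323, 366 and 364 CPM at stage 4, against 95.6, 203 and 220 CPM at stage 3 (1.02 ± 0.26, edgeR adjusted p = 0.0068, and 0.062 without that library). CESA1 had 1100, 1220 and 1220 CPM at stage 4 and 491, 889 and 924 CPM at stage 3 (0.62 ± 0.21, adjusted p = 0.048). It lost its call without that library or any 1 stage 4 library, and with the replicate number as a block. CSLD4, which makes wall material in dividing cells, fell to 59.5, 65.4 and 62.5 CPM at stage 4, against 102, 112 and 119 CPM at stage 3 (-0.83 ± 0.14, adjusted p = 9.0e-05). The laccase LAC4 had 0.104, 0.106 and 0.159 CPM at stage 4 and 0.810, 0.690 and 0.835 CPM at stage 3 (-2.62 ± 0.58, adjusted p = 0.0019), on 11 and 90 counts in all. Without stage 3 replicate 1 the list had 2 lower calls, CSLD4 and LAC4, and none higher.

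Expansins, which loosen walls, and tonoplast aquaporins had 5 of 24 tested members higher (20.8%) and none lower, with a median of 0.25, and 3 higher without stage 3 replicate 1. EXPA16 (Os06g0621900) had 59.5, 64.0 and 65.0 CPM at stage 4, against 37.4, 43.1 and 39.0 CPM at stage 3 (0.66 ± 0.10, edgeR adjusted p = 4.5e-05). EXPB8 had 5.37, 3.8 and 3.97 CPM at stage 4 and 1.76, 1.18 and 1.38 CPM at stage 3 (1.60 ± 0.35, adjusted p = 0.0017). EXPA1 had the largest fitted change (4.05 ± 1.10, adjusted p = 0.016), on 58 counts at stage 4 and 4 at stage 3, and lost its call without stage 3 replicate 1 or 3. Members of this family share sequence, and the sources used here do not give the rule for reads that fit several genes. The abundant tonoplast aquaporin TIP2-2 averaged 894 CPM at stage 4 and 721 CPM at stage 3 without a call (0.31 ± 0.14, adjusted p = 0.14).

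Among genes tied to stomata, the subject of the study, members of the stomatal development list were lower where called and those of the guard cell list higher. The stomatal development list holds SHR1, SHR2, SCR1, SCR and MAPK6. OsEPF1, EPF2, SPCH1, MUTE, FAMA and TMM could not be matched by name and are not on it. Of 5 stomatal development genes, 2 were lower, with a median of -0.21. SHR1 (Os07g0586900), a GRAS transcription factor that acts in stomatal lineage divisions in rice, had 15.0, 11.2 and 13.3 CPM at stage 4, against 22.1, 18.4 and 21.2 CPM at stage 3 (-0.64 ± 0.11, edgeR adjusted p = 0.00019). Its partner SCR1 fell by 0.42 ± 0.11 (adjusted p = 0.0078), a call lost without stage 4 replicate 2. SHR2 averaged 11.7 CPM at stage 4 and 13.5 CPM at stage 3 and was not called. Of 16 guard cell function genes, 4 were higher (25%) and none lower, with a median of 0.62. The higher count was 2 without stage 3 replicate 3 or stage 4 replicate 3, and 7 with DESeq2. All 4 were plasma membrane aquaporins, which other cells express as well. Such aquaporins make up most of the list, with PHOT and SAPK genes as the rest, so its median mostly describes them. PIP2-2 (Os02g0629200) had 11.3, 6.57 and 7.77 CPM at stage 4 and 3.14, 1.5 and 1.81 CPM at stage 3 (2.00 ± 0.35, adjusted p = 0.00017). PIP1-2 had 125, 101 and 124 CPM at stage 4 and 83.7, 55.1 and 59.3 CPM at stage 3 (0.82 ± 0.21, adjusted p = 0.0075). PIP2-5 averaged 2.73 and 0.643 CPM in the same order (2.09 ± 0.60, adjusted p = 0.020, lost without stage 3 replicate 2 or 3 or stage 4 replicate 3). The abundant PIP2-1 and PIP1-1 averaged 2070 and 1970 CPM at stage 4 and 1680 and 1490 CPM at stage 3, and were not called (adjusted p = 0.065 and 0.094). The blue-light receptor PHOT1A averaged 1.02 and 0.495 CPM and was not called either (1.02 ± 0.49).

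Photosynthesis genes lay above 0 in the median, and a few passed the test. Of 29 tested, 5 were higher (17.2%) and 2 lower (6.9%), with a median of 0.33. The higher count was 1 without stage 3 replicate 2 or stage 4 replicate 1, 3 without stage 3 replicate 3 and 8 without stage 3 replicate 1. It was 6 with the replicate block, and on the 6 libraries alone 12 with the block and 1 without it. The summed list was at 2917 to 3494 CPM at stage 4, against 1764 to 2626 CPM at stage 3. CAB2R (Os01g0600900), an antenna protein of photosystem II, had 874, 928 and 751 CPM at stage 4 and 377, 348 and 253 CPM at stage 3 (1.38 ± 0.42, edgeR adjusted p = 0.023). The groups were separate by over 2-fold, yet the call was lost without stage 3 replicate 2 or 3 or stage 4 replicate 1 or 2. TPT, the triose phosphate exporter of the chloroplast, averaged 19.2 CPM at stage 4 and 10.1 CPM at stage 3 (0.93 ± 0.28, adjusted p = 0.021, lost without stage 3 replicate 1 or stage 4 replicate 2). RCA, which activates Rubisco, rose by 0.62 ± 0.17 (adjusted p = 0.015, lost without stage 3 replicate 2 or stage 4 replicate 1 or 3). The lower genes were GLK2, a transcription factor of chloroplast development, at -0.47 ± 0.10 (adjusted p = 0.0011), and CHLG, an enzyme of chlorophyll synthesis, at -0.34 ± 0.07 (adjusted p = 0.00044), and both held with any 1 library left out. Of 13 cuticle, wax and silica genes, ROC4, a homeobox gene of the epidermis, was higher with overlapping groups (0.69 ± 0.19, adjusted p = 0.010, lost without stage 3 replicate 1 or stage 4 replicate 2), and none was lower (1 without stage 4 replicate 1), with a median of 0.06.

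Sugar transport and invertase genes had 6 of 33 tested members higher (18.2%) and 2 lower (6.06%), with a median of 0.16. The higher count was 11 with DESeq2 and 4 without stage 4 replicate 1 or 3. SUT2 (Os12g0641400), a sucrose transporter of the vacuole, had 101, 94.7 and 108 CPM at stage 4, against 56.2, 65.2 and 67.4 CPM at stage 3 (0.68 ± 0.13, edgeR adjusted p = 0.00029). SWEET15 (Os02g0513100), a sugar exporter, had 33.1, 27 and 24.5 CPM at stage 4 and 14.7, 9.17 and 11.7 CPM at stage 3 (1.25 ± 0.26, adjusted p = 0.0011). Both genes were higher in every stage 4 library. The monosaccharide transporter MST3 averaged 7.16 and 2.22 CPM in the same order (1.68 ± 0.46, adjusted p = 0.011, lost without stage 4 replicate 3). SWEET11, an exporter of sucrose, was higher by 0.55 ± 0.14 (adjusted p = 0.0076, lost without stage 3 replicate 3 or stage 4 replicate 1).

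Weakly expressed members of the SWEET family gave the largest changes of the list. SWEET14 had 49, 27 and 22 counts at stage 4 and 8, 1 and 1 counts at stage 3 (3.48 ± 0.67, edgeR adjusted p = 0.00089, with 5.28 without stage 3 replicate 1 and 2.74 without replicate 3). SWEET3A (Os05g0214300) had 0 counts in all 3 stage 4 libraries and 28, 26 and 52 counts at stage 3, which makes it at least 27.7-fold lower against a floor of 3 counts over the stage 4 group (adjusted p = 7.1e-05). SWEET6A had 0, 0 and 9 counts at stage 4 and 61, 35 and 108 counts at stage 3 (-4.09 ± 0.82, adjusted p = 0.0017, and -8.66 without stage 4 replicate 3, which holds all of its stage 4 counts). Of 7 starch genes, 2 were higher, with a median of 0.13. ALK (Os06g0229800), a starch synthase, had 15.4, 14.9 and 10.3 CPM at stage 4 and 2.06, 1.83 and 1.69 CPM at stage 3 (2.87 ± 0.30, adjusted p = 7.5e-08). The debranching enzyme ISA1 averaged 43.2 and 25.1 CPM in the same order (0.79 ± 0.23, adjusted p = 0.019, lost without stage 3 replicate 1 or 3 or stage 4 replicate 1 or 2). The other starch genes, GBSS1 among them at 0.816 and 1.24 CPM, were not called.

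Lists that bear on water stress, heat and time of harvest gave 1 call each. Of 24 abscisic acid and dehydration genes, 1 was higher, with a median of 0.13, or 2 without stage 3 replicate 1. The gene called in the full comparison was the dehydrin RAB16C, on 30 counts at stage 4 and 4 at stage 3 (3.11 ± 0.78, edgeR adjusted p = 0.0066). Of 14 heat shock genes, 1 was higher, with a median of 0.11, and 1 was lower besides without stage 3 replicate 2. The higher gene was the heat shock factor HSFA2A, with 43, 27 and 31 counts at stage 4 and 1, 1 and 20 counts at stage 3 (2.72 ± 0.62, adjusted p = 0.0027, and 4.79 without stage 3 replicate 3). Of 12 clock genes, the photoreceptor PHYA was lower (-0.41 ± 0.11, adjusted p = 0.0069) and none higher, with a median of 0.12. The evening gene GI averaged 350 CPM at stage 4 and 330 CPM at stage 3 (0.09 ± 0.55), and the morning gene CCA1 602 and 553 CPM (0.12 ± 0.43), with errors wide enough to leave sizeable shifts undetected.

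The same step in OsEPF1-oe, in 6 separate libraries, gave 3247 calls (12.1%), 1708 higher (6.39%) and 1539 lower (5.76%). It gave 2123 calls without its stage 3 replicate 2, of which 926 were lower. With RLE scaling, 1968 genes were higher and 1203 lower (62.1% higher, against 52.6%), and with DESeq2 2406 and 1500. In both lines and in the same direction, 2257 genes were called, which makes 55.4% of the IR64 calls and 69.5% of the OsEPF1-oe calls. These were 1168 higher and 1089 lower genes, and 4 more were called in opposite directions. Of the 4074 IR64 calls, 97.1% had the same sign in OsEPF1-oe, against 71.5% of all tested genes. The median log2 fold change of the genes higher in IR64 was 0.7016 in OsEPF1-oe, and that of the genes lower in IR64 was -0.4875. In IR64 itself, where these genes were chosen, the medians were 0.8849 and -0.7422.

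The test of the difference between the 2 steps called 79 genes (0.296%), 53 with a larger value in OsEPF1-oe and 26 with a smaller one. At an unadjusted p under 0.05, 1237 of 26726 genes passed, fewer than that threshold passes on average where no gene differs. The count of calls was 180 with DESeq2. In IR64, it was 16 without stage 3 replicate 1, 11 without stage 4 replicate 1 and 13 without stage 4 replicate 2. In OsEPF1-oe, it was 123, 18 and 18 without stage 3 replicate 1, 2 and 3, and 16 and 42 without stage 4 replicate 2 and 3. Of list genes, SDS and KRP4 differed. SDS, a cyclin-like protein of early meiosis, had a step of 1.82 ± 0.26 in OsEPF1-oe and 0.17 ± 0.25 in IR64 (difference 1.65 ± 0.35, edgeR adjusted p = 0.031). KRP4 had -0.25 ± 0.14 in OsEPF1-oe and 0.67 ± 0.14 in IR64 (difference -0.92 ± 0.20, adjusted p = 0.034). The difference was not called for PAIR1, with 0.00 ± 0.28 in OsEPF1-oe and -1.77 ± 0.29 in IR64 (1.77 ± 0.40, adjusted p = 0.051). Nor was it for AGO18, with 3.64 ± 0.27 and 2.23 ± 0.25 in the same order (1.41 ± 0.35, adjusted p = 0.088).

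**Figure D4:**
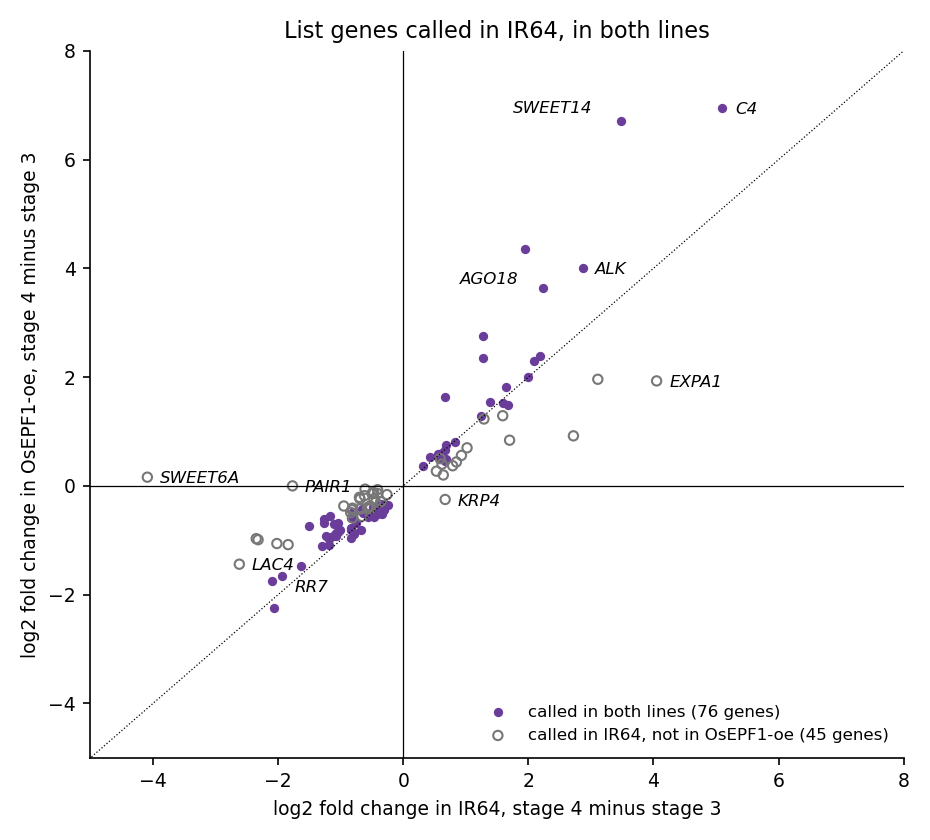
Log2 fold change between stage 4 and stage 3 in OsEPF1-oe (y axis) against that in IR64 (x axis) for 121 list genes called in IR64. The 76 filled points were called in both lines, the 45 open points in IR64 and not in OsEPF1-oe, and the dotted line marks equal values. Of the 121 genes, 118 have the same sign in both lines, with KRP4 among the exceptions. SWEET3A and IAA9, with 0 to 3 counts in 1 group, are left out.

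Of the 34 cell cycle genes, 20 were lower and 1 higher there, with a median of -0.49, and MCM5 fell by 1.10 ± 0.18 (edgeR adjusted p = 8.6e-05). UDT1 had 8.88, 7.68 and 9.50 CPM at stage 4 of OsEPF1-oe and 27.1, 31.7 and 29.0 CPM at stage 3 (-1.75 ± 0.22, adjusted p = 2.1e-06). C4 had 593, 281 and 314 CPM at stage 4 and 6.53, 1.89 and 1.04 CPM at stage 3 (6.95 ± 1.01, adjusted p = 2.0e-05). Both groups were apart in that line too. The meristem list had 2 lower calls in OsEPF1-oe with a median of -0.61, the guard cell list 5 higher with a median of 0.49, and the meiosis list 5 higher and 2 lower with a median of -0.06.

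The OsEPF1-oe libraries also place the IR64 calls on a developmental course. Their levels did not enter the IR64 contrast, though they shared in the filter and in the spread of each gene. Of the genes higher at stage 4 in IR64, 54.2% had their highest OsEPF1-oe mean at stage 5, 37.2% in mature florets and 7.23% at stage 4, against 15.5%, 39.8% and 6.94% of all tested genes. Of the genes lower at stage 4 in IR64, 62.4% were highest at stage 1 of OsEPF1-oe, against 24.9% of all tested genes. Relative to stage 3 of that line, the median log2 level of the IR64-higher genes was -0.88, -0.63, 0.67 and 1.19 at stages 1, 2, 4 and 5 and 0.47 in mature florets. The lower genes ran through 0.47, 0.34, -0.49 and -0.85 at the same stages to -1.18 in mature florets.

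The neighbouring steps of IR64 share the stage 3 or the stage 4 libraries with the step described, so their values are only set beside it. Stage 3 against stage 2 gave 5253 calls (19.7%), 2959 higher (11.1%) and 2294 lower (8.58%). Stage 5 against stage 4 gave 2792 (10.4%), 1639 higher (6.13%) and 1153 lower (4.31%), a count that was 1756 without stage 5 replicate 1 (1047 higher and 709 lower) and 1853 without stage 4 replicate 2 (1065 higher). Without stage 4 replicate 1, 1081 genes were higher at that step. Cell cycle genes were lower in 27, 26 and 20 of 34 cases at the steps to stages 3, 4 and 5. The median of the meristem list was -0.69, -0.78 and -0.04 at the same 3 steps, and that of the guard cell list 0.55, 0.62 and 0.51.

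Several anther genes changed direction around stages 3 and 4. UDT1 averaged 4.93, 13.6, 32.1, 7.48 and 6.04 CPM at stages 1 to 5. BHLH141 was at 0.131, 7.99, 74.5, 14.9 and 29.5 CPM over the same stages. These 2 regulators were thus highest at stage 3. AGO18 averaged 1.87, 2.07, 10, 46.7 and 13.9 CPM and ZEP1 7.03, 7.39, 16, 38.5 and 9.70 CPM, both highest at stage 4. PAIR2 averaged 11.3, 18.3, 88.3, 140 and 46.5 CPM. MEL1 averaged 295, 274, 89.8, 21.5 and 14.1 CPM, a decline from stage 2 on. C4 averaged 0.498, 8.53, 26.4, 902 and 2010 CPM at stages 1 to 5 and 1.18 CPM in mature florets.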

How the data were processed

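Poly(A) RNA of whole florets was sequenced with NEBNext Ultra libraries, per the labels' protocols. The authors deposited raw read counts per gene, not normalized, for 37862 IDs. They used featureCounts, Subread 2.0.0, HISAT2 2.1.0 and Trimmomatic 0.38 with build IRGSP-1.0, per the submitters' processing notes. The sources used here give neither the strand nor the multi-mapping setting, so values of overlapping genes and of near-identical family members, such as PIP aquaporins, expansins, SWEET and antenna genes, are uncertain.

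With edgeR 4.0.16 in R 4.3.3, genes passing filterByExpr over the 12 groups were scaled by TMM and fitted with group means on all 36 libraries (robust quasi-likelihood, 24 residual degrees of freedom, Benjamini-Hochberg over 26726 genes, call at 0.05). The spread of each gene is thus shared with groups outside the comparison. Totals were 22372257 to 55476576 counts. The SE of a log2 fold change is its absolute value over the square root of the test's F statistic. It follows each ± beside a log2 fold change and only approximates a standard error, since the fit did not estimate it. With 0 counts in a group, the fold is a bound against 3 counts over the group. Counts were also simulated with stage 4 of IR64 set equal to stage 3 except in the changed genes, all at 1 CPM or more. With 26494 genes, 76% of 100 genes changed 2-fold and 94% of 100 genes changed 4-fold were recovered, with 9 false calls in 179. Each gene had the same spread in all groups. The wider spread at stage 3, its replicate 1 and the replicate numbers were not simulated, so these rates do not give the error of the real comparison. Same-numbered stage 4 and stage 3 libraries deviated together in IR64 (r = 0.282, 0.258 and 0.341 across genes), so the numbers appear to pair them. In OsEPF1-oe the values were 0.279, 0.199 and 0.015. What a number marks is not in the labels. The main test left the numbers out, and the replicate block was tried as an alternative.

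The count table gives IDs without names, and 1 ID occurs in the RefSeq table. Lists of 702 IDs and symbols were written from general knowledge, and the 477 whose symbol lies at the same relative rank of the chromosome in RefSeq, within 0.02, were kept. The step, the lists, the tests and the genes were chosen with earlier results of these data known, and 5 lists (hull and grain size, anther cell fate and germline Argonautes, starch, expansins and tonoplast aquaporins, cytokinin) were added last. The text names list members, with at least the 2 largest called changes per direction and list, and by ID the 2 genes per direction with the largest change among called genes averaging at least 20 CPM with separate groups. As alternatives, DESeq2 1.42.0, upper-quartile and RLE scaling, no filter on low counts, a filter of 5 CPM in 3 libraries, the replicate block, only the libraries compared, and leaving out each library were tried. Figures were drawn with matplotlib 3.10.9.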

Additional observations from a re-analysis of the deposited data

Results flagged for a closer look

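The step from stage 3 to stage 4 differed between the lines in 3 of the genes named, by the test of the difference itself. For SDS the step in OsEPF1-oe exceeded that in IR64 by 1.65 on the log2 scale (SE 0.35, edgeR adjusted p = 0.031). SDS had 17.2, 17.4 and 13.4 CPM at stage 4 and 5.56, 4.34 and 3.69 CPM at stage 3 of OsEPF1-oe. In IR64 it had 9.66, 9.01 and 12.8 CPM at stage 4 and 9.59, 9.70 and 8.74 CPM at stage 3. For KRP4 the difference was -0.92 (SE 0.20, adjusted p = 0.034), with 10.8, 8.62 and 11.1 CPM at stage 4 and 11.3, 13.6 and 11.4 CPM at stage 3 of OsEPF1-oe. For Os07g0151100 it was 2.59 (SE 0.51, adjusted p = 0.020), with steps of -3.60 in OsEPF1-oe and -6.20 in IR64. With each of the 12 libraries left out in turn, the call of the difference was lost 8 times for SDS, 9 times for KRP4 and 7 times for Os07g0151100, while the differences kept their sign under all 19 alternatives, at 1.52 to 1.82, -1.12 to -0.79 and 2.08 to 2.93. The cause of these differences was not tested.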

How the results depend on the processing

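Calls of the IR64 step numbered 4031 to 4778 with other scaling or DESeq2, 3809 without a filter, 3777 at 5 CPM or more, and 2920 to 3731 with 1 library left out, and no gene called in both the original and an alternative fit changed sign. With only the 6 libraries compared, the count was 2628. With the replicate block it was 4225, of which 3989 were among the 4074, and of 127 named calls it ended CESA1 and IAA9 (adjusted p up to 0.057) and no other. The block added to the 6 libraries gave 3334 calls. The OsEPF1-oe step gave 2123 to 2655 calls with 1 library left out, 3335 with the replicate block and 4535 with the block on its 6 libraries. The difference between the lines gave 180 genes with DESeq2, 11 with only the 12 libraries compared, 11 to 123 with 1 library left out and 75 with the block. The steps to stages 3 and 5 gave 3719 to 4676 and 1756 to 2533 calls with 1 library left out. Calls of list genes numbered 94 to 145 over all alternatives. Of the 127 named calls, 75 held with each of the 6 libraries left out, and 31 were lost without stage 3 replicate 1, the library that stood apart. Among the smaller counts of list genes, the higher hull genes were 3 with DESeq2, the lower cytokinin and meristem genes were 4 each with the block on the 6 libraries, the higher tapetum genes were 5 in that fit, and no gibberellin or brassinosteroid gene was called on the 6 libraries alone. Depth and 3 pools a group limit the precision.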
